A study of Mus musculus with 4 samples.

Results

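The HOX genes are the homeobox transcription factor genes that lie side by side in the A, B, C and D clusters. They were taken as every probe set of the array whose platform annotation gives 1 gene symbol made of Hox, a cluster letter and a number. This found 37 of the 39 mouse HOX genes, each with 1 probe set, among 35556 probe sets. The other 2 were not analysed here. The A cluster had 10 measured genes and the other three clusters 9 each.

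The platform was the Affymetrix Mouse Gene 1.0 ST array, which carries probes along whole transcripts, and 4 arrays were run, 2 in each group. The RNA came from Flt3(-) LSK bone marrow cells, a sorted fraction enriched for blood stem cells, of mice aged 6 to 8 weeks whose strain is labelled C57/BL6 after 4 generations of backcrossing. Control mice were Mx1Cre-GABPa(FL/+), with 1 floxed and 1 intact allele, and the others Mx1Cre-GABPa(FL/-), with 1 floxed allele opposite a null one. Both genotypes carried Mx1Cre, a recombinase behind an interferon-responsive promoter that is also active outside stem cells, and both received pIpC, with the marrow taken 4 days after its last dose. Starting RNA of 800 pg to 50 ng was amplified before hybridization. Neither the number of animals behind a sample nor whether samples were pooled is given, so p-values measure the spread between these samples, which may be technical.

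HOX proteins bind DNA through a homeodomain, usually together with TALE homeodomain partners of the MEIS and PBX families. Genes with the same number in different clusters are paralogues, and the number runs from the 3′ end of a cluster, active in the head and neck of the embryo, to its 5′ end, active in posterior tissue. In blood, members of the A and B clusters are active in stem and progenitor cells and are shut down as cells mature. Hoxa9 promotes renewal of progenitors and Hoxb4 expansion of stem cells. The MLL methyltransferase, encoded by Kmt2a, keeps HOX chromatin open, and Polycomb complexes keep it closed. GABPα, encoded by Gabpa, is an ETS-family factor that binds DNA around the letters GGAA.

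On the arrays labelled deficient, 34 of the 37 HOX probe sets read higher than in the controls and 3 read lower. Over all probe sets, 66.3% read higher and 33.7% lower. The 3 that read lower were Hoxa7, Hoxa9 and Hoxa10, which follow one another in the A cluster. No HOX probe set passed the adjusted threshold, so every value here is a description of these arrays. The median log2 difference of the 37 genes was 0.31, against 0.15 over all probe sets. Differences are given as the arrays labelled deficient minus the controls.

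The promoters of 3 genes are shown because these genes had the largest differences in each direction, Hoxa9 and Hoxa7 downward and the Hoxa9 paralogue Hoxd9 upward. Each runs from 250 bases before to 50 bases after a RefSeq transcript start on GRCm38.p6, and capitals mark GGAA or its reverse complement TTCC, the core letters bound by ETS factors.
Hoxa7, chr6:52218524-52218823, minus strand: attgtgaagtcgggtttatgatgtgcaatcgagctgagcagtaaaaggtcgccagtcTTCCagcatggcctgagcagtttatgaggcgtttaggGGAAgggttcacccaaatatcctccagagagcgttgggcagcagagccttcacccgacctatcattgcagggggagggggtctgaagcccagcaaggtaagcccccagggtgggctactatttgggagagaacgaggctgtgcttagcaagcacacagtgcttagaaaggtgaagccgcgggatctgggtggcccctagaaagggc
Hoxa9, chr6:52227321-52227620, minus strand: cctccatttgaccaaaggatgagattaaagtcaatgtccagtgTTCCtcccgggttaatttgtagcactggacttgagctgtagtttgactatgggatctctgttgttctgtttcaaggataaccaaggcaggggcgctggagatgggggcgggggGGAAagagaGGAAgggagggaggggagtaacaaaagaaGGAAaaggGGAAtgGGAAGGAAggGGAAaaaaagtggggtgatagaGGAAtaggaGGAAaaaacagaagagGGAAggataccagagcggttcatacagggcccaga
Hoxd9, chr2:74697513-74697812, plus strand: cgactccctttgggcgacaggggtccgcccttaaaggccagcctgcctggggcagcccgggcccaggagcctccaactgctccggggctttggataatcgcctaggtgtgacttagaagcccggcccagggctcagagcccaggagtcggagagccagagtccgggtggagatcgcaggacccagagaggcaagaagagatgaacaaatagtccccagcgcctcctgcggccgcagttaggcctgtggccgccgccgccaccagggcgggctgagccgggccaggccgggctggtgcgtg
The Hoxa9 window held 11 such matches, many of them in a purine-rich stretch, and 0.253% of all 32841 RefSeq windows of the same length held as many or more. The Hoxa7 window held 2, a count that 84.6% of all windows reached or passed, and the Hoxd9 window 0. The median of all windows was 3. Over both strands, GGAA was found in 21 of the 23 HOX windows, which belong to 21 measured genes, against 96% of all windows. The longer string CGGAAG, which contains GGAA, was found in 2 of 23, those of Hoxa5 and Hoxd1, against 16.9% of all windows. CCGGAAG, which contains both and is close to the GABP consensus, was found in 0 of 23, against 8.86%. The median HOX window had 58.0% G or C and 15 CpG pairs, and the median of all windows 52.7% and 7. A match is a description of letters and not a bound site.

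The A, B, C and D clusters also hold microRNA genes, whose mature products pair with HOX messages among others. Mir196b lies between Hoxa9 and Hoxa10, and its product shares the seed, bases 2 to 8 in capitals, with that of Mir196a-1 in the B cluster and Mir196a-2 in the C cluster. The products of Mir10a and Mir10b, in the B and D clusters, share another seed. The sequences come from RefSeq on GRCm38.p6.
miR-196b-5p: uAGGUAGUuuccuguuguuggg
miR-196a-5p: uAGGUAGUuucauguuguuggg
miR-10a-5p: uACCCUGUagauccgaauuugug
miR-10b-5p: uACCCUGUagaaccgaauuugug

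The values are log2 signals, and probe sets differ in how well they bind, so signals are compared between arrays and not between genes. The arrays correlated at 0.96 within the controls, 0.944 within the arrays labelled deficient and 0.923 to 0.942 between groups, across probe sets, which are not independent. Gabpa itself read 8.43 and 7.28 in the controls, then 6.43 and 7.85 in the deficient-labelled pair, so it did not separate the groups and they are called by their labels. Whether that probe set lies in the deleted part is not known here, so it may check nothing. Kit, which the LSK gate selects for, read 10.21 in both controls, then 7.70 and 8.50, and Flt3, which the gate selects against, read 8.43 and 9.26 against 5.68 and 5.95. Erythroid markers read higher for 10 of 10 measured genes, with list means of 6.45 and 6.53 in the controls, then 7.93 and 8.78 in the deficient-labelled pair. Macrophage markers read higher for 14 of 14, with means of 5.94 and 6.08 against 7.41 and 6.88. Stromal and endothelial markers read higher for 11 of 15, with means of 6.17 and 6.14 against 7.06 and 6.73. Granulocyte and monocyte, B and plasma cell, and T and NK cell markers read higher for 7 of 12, 8 of 9 and 7 of 9. For comparison, 66.3% of all probe sets read higher and 33.7% lower. Megakaryocyte markers read lower for 5 of 5, with means of 8.42 and 8.63 against 7.48 and 6.86. These lists moved between the same arrays as every HOX result below, and their part in it was not tested. In sorted bulk samples, fewer cells of a type and less RNA per cell cannot be told apart.

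Hoxa7 and Hoxa9 were the HOX genes whose groups were separated in the downward direction, 5.41% of HOX genes against 14.0% of all probe sets. Hoxa7, a central A cluster factor active in progenitors, read 7.00 and 6.90 in the controls, then 6.42 and 6.47 in the deficient-labelled pair. Both control arrays lay well above the others, and each pair was tight. The log2 difference was −0.50 (SE 0.14, adjusted p = 0.405 in limma), and it ran from −0.55 to −0.46 with 1 array left out.

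Hoxa9, the main HOX factor of renewing blood progenitors, read 7.16 and 7.30 in the controls, then 7.00 and 6.43 in the deficient-labelled pair. The groups did not overlap, but replicate 1 labelled deficient lay close to the controls. The control mean was 7.23 ± 0.096 (SD, n = 2) and the other 6.71 ± 0.40, which gives a log2 difference of −0.52 (SE 0.25, adjusted p = 0.447 in limma). Without deficient replicate 2 the Hoxa9 difference was −0.23, and without deficient replicate 1 it was −0.80.

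Hoxa10, which acts with Hoxa9 in progenitors and in megakaryocyte and erythroid commitment, read 7.14 and 6.53 in the controls, then 6.76 and 6.66 in the deficient-labelled pair. Its groups overlapped, since control replicate 2 was the lowest array, and the log2 difference was −0.13 (SE 0.26, adjusted p = 0.807 in limma). Without control replicate 1 it turned to 0.18, and without control replicate 2 it was −0.43.

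The Mir196b probe set, between Hoxa9 and Hoxa10, read 6.60 and 7.22 in the controls, then 6.13 and 6.47 in the deficient-labelled pair. It is no HOX gene, and such a probe set reports RNA over the hairpin and not the mature microRNA. Its log2 difference was −0.61 (SE 0.29, adjusted p = 0.443 in limma), with values from −0.92 without control replicate 1 to −0.30 without control replicate 2. On the deposited scale it was the 1 member below 0 among 10 measured noncoding genes of the clusters. Under cyclic loess 4 of the 10 were below 0, and 2 after array medians were subtracted. Of all probe sets, 66.3% were above 0 on the deposited scale, 49.3% under loess and 57.9% after median subtraction. Mir196a-1, with the same seed, differed by 0.34 (0.22 to 0.47 with 1 array left out), Mir196a-2 by 0.18, Mir10a by 0.077 and Mir10b by 0.099. Mir615, inside the C cluster, differed by 0.55 (SE 0.18, adjusted p = 0.410 in limma).

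**Figure D1:**
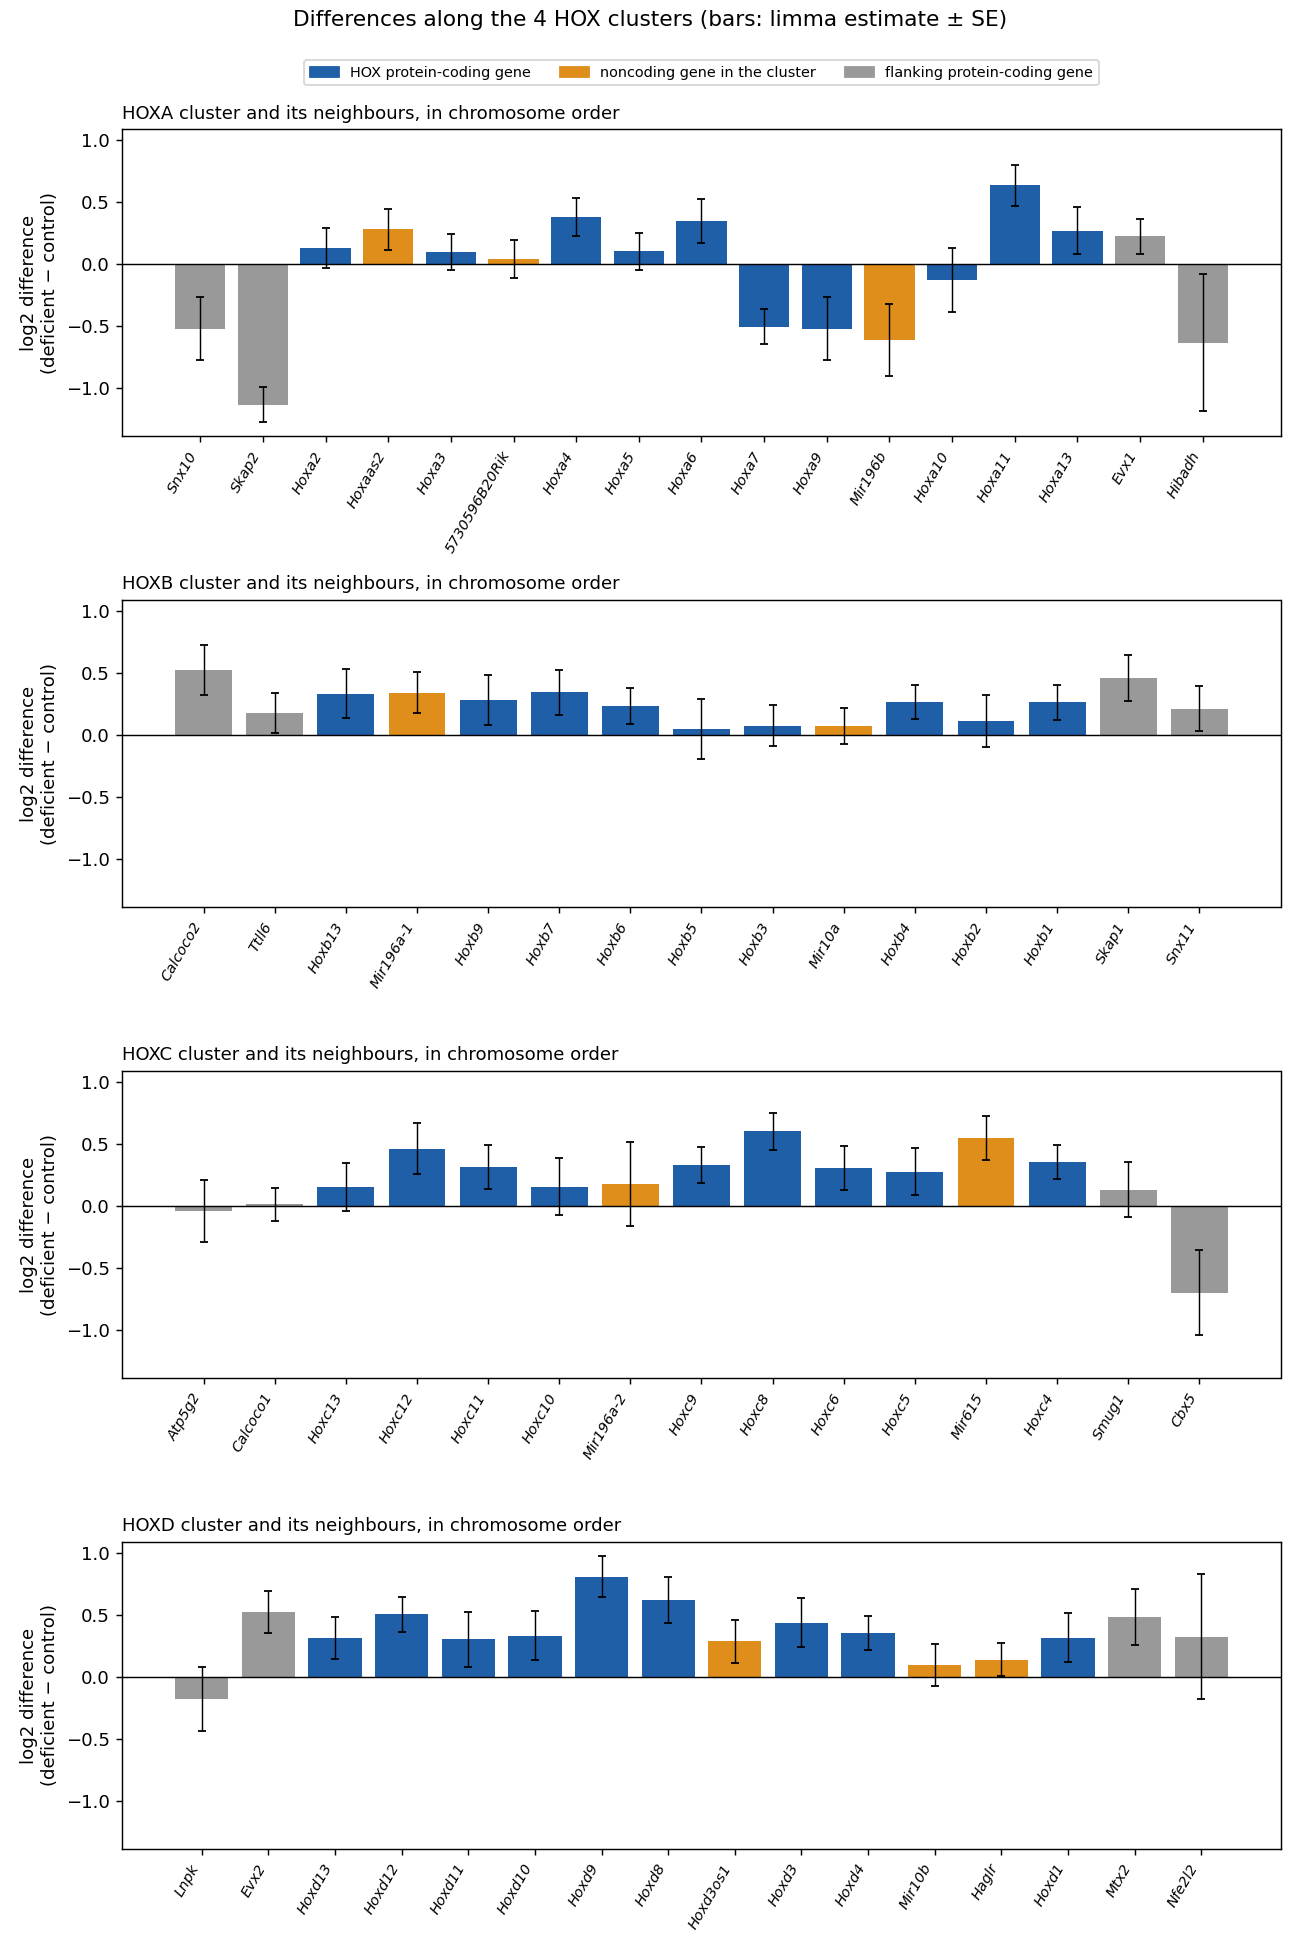
Log2 difference (arrays labelled deficient minus control, bars with limma's SE, 2 arrays per group) of each measured gene along the 4 HOX clusters, ordered by position on the chromosome, with HOX genes in blue, noncoding genes in orange and the 2 nearest measured protein-coding genes on each side in grey. Hoxa7, Hoxa9, Mir196b and Hoxa10 form the one run of bars below 0 inside the clusters.

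Among the A cluster genes on the 3′ side of that run, 5 of 5 read higher on the arrays labelled deficient, beside 66.3% of all probe sets. Hoxa4, an anterior group factor, read 6.85 and 6.94 in the controls, then 7.36 and 7.19 in the deficient-labelled pair, a log2 difference of 0.38 (SE 0.15, adjusted p = 0.426 in limma). Both arrays labelled deficient lay above both controls. Hoxa6, the direct neighbour of Hoxa7, read 6.43 and 6.56 in the controls, then 6.70 and 6.98 in the deficient-labelled pair, a difference of 0.35 (SE 0.17), which was 0.21 without deficient replicate 2. Hoxa2, Hoxa3 and Hoxa5 differed by 0.13, 0.10 and 0.11, and cyclic loess turned these to −0.089, −0.12 and −0.095. Hoxa2 was at 0.017 without deficient replicate 1, and Hoxa3 and Hoxa5 were at 0.021 and 0.015 without deficient replicate 2.

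On the 5′ side, Hoxa11, a posterior gene of limb and uterus, read 5.39 and 5.19 in the controls, then 5.84 and 6.01 in the deficient-labelled pair. Its groups were clearly apart, with a log2 difference of 0.64 (SE 0.16, adjusted p = 0.393 in limma). Hoxa13, the last gene of the cluster, which patterns digits and the urogenital tract, differed by 0.27 (SE 0.19), which was 0.10 without control replicate 1 and 0.44 without control replicate 2. Neighbours Hoxa10 and Hoxa11 therefore stood on opposite sides of 0, though the difference between their differences was not tested. The mean over the 10 A cluster genes was 6.16 and 6.15 in the controls and 6.24 on both other arrays. The median difference of the A cluster was 0.12, and cyclic loess turned it to −0.092.

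In the B cluster all 9 measured genes were above 0, where 66.3% of all probe sets were. The 9 genes lay between 0.051 and 0.35, with a median of 0.26. Hoxb4, which expands stem cells when overexpressed, read 7.28 and 7.36 in the controls, then 7.57 and 7.62 in the deficient-labelled pair. Its difference of 0.27 (SE 0.14, adjusted p = 0.455 in limma) was opposite in sign to that of Hoxa9, and its groups did not overlap. Hoxb3, Hoxb5 and Hoxb2 had overlapping groups. Hoxb3 read 6.99 and 6.76 against 6.89 and 7.02, Hoxb5 6.24 and 5.71 against 5.96 and 6.09, and Hoxb2 6.01 and 6.30 against 6.43 and 6.10. Their differences were 0.075, 0.051 and 0.11, and cyclic loess turned them to −0.022, −0.15 and −0.064. Hoxb6 and Hoxb7 differed by 0.24 and 0.35, Hoxb9 by 0.28, Hoxb13 by 0.34, and Hoxb1, a hindbrain gene, by 0.26. Without control replicate 1, Hoxb7 was at 0.20, Hoxb9 at 0.084 and Hoxb13 at 0.17, and without control replicate 2 they were at 0.49, 0.48 and 0.50. The probe set shared by Hoxb8 and Hoxb7 differed by 0.40 and stands for neither gene.

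In the C cluster all 9 genes were above 0, beside 66.3% of all probe sets. The 9 genes had a median of 0.32 and a range from 0.15 to 0.61. Hoxc8, a gene of the trunk skeleton and motor neurons, read 4.65 and 4.68 in the controls, then 5.18 and 5.36 in the deficient-labelled pair. The controls lay close together and both other arrays lay above them, a difference of 0.61 (SE 0.15, adjusted p = 0.387 in limma). Hoxc4, the anterior end of this cluster and active in lymphoid and progenitor cells, read 5.17 and 5.22 against 5.51 and 5.58, a difference of 0.35 (SE 0.14). Hoxc9 read 6.07 and 6.08 against 6.32 and 6.49, a difference of 0.33 (SE 0.15). Hoxc12, Hoxc11, Hoxc6 and Hoxc5 differed by 0.46, 0.32, 0.31 and 0.28, each with the groups apart on the 4 arrays. Without control replicate 1, Hoxc11 was at 0.16 and Hoxc5 at 0.13, and without deficient replicate 2, Hoxc12 was at 0.25 and Hoxc6 at 0.19. Hoxc10 and Hoxc13 had overlapping groups, with differences of 0.16 and 0.15, and cyclic loess turned them to −0.061 and −0.068. Hoxc13 was at 0.0048 without control replicate 1.

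In the D cluster all 9 genes were above 0 and the groups overlapped for none of them. Over all probe sets 66.3% were above 0, and 38.9% had groups apart in the upward direction. The D cluster median was 0.36 and the range 0.31 to 0.81. Hoxd9, the D cluster paralogue of Hoxa9, read 5.69 and 5.73 in the controls, then 6.66 and 6.38 in the deficient-labelled pair. Its difference of 0.81 (SE 0.17, adjusted p = 0.348 in limma) was the highest among the 37 genes, and its adjusted p the lowest. It ran from 0.67 to 0.94 with 1 array left out.

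Hoxd8, next to Hoxd9, read 5.61 and 5.95 against 6.39 and 6.41, a log2 difference of 0.62 (SE 0.18, adjusted p = 0.408 in limma). Hoxd12, a limb gene, read 4.72 and 4.79 against 5.21 and 5.31, a difference of 0.50 (SE 0.14, adjusted p = 0.406 in limma). Hoxd4, an anterior gene of the cluster, read 5.09 and 5.11 against 5.48 and 5.44, a difference of 0.36 (SE 0.14). Each of these genes had both arrays labelled deficient above both controls. The other 5 D cluster genes, Hoxd1, Hoxd3, Hoxd10, Hoxd11 and Hoxd13, differed by 0.32, 0.44, 0.33, 0.31 and 0.31. Their sizes moved when single arrays were left out. Without control replicate 1, Hoxd11 was at 0.064, Hoxd13 at 0.17 and Hoxd10 at 0.18, and without deficient replicate 2, Hoxd1 was at 0.12 and Hoxd3 at 0.26.

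**Figure D2:**
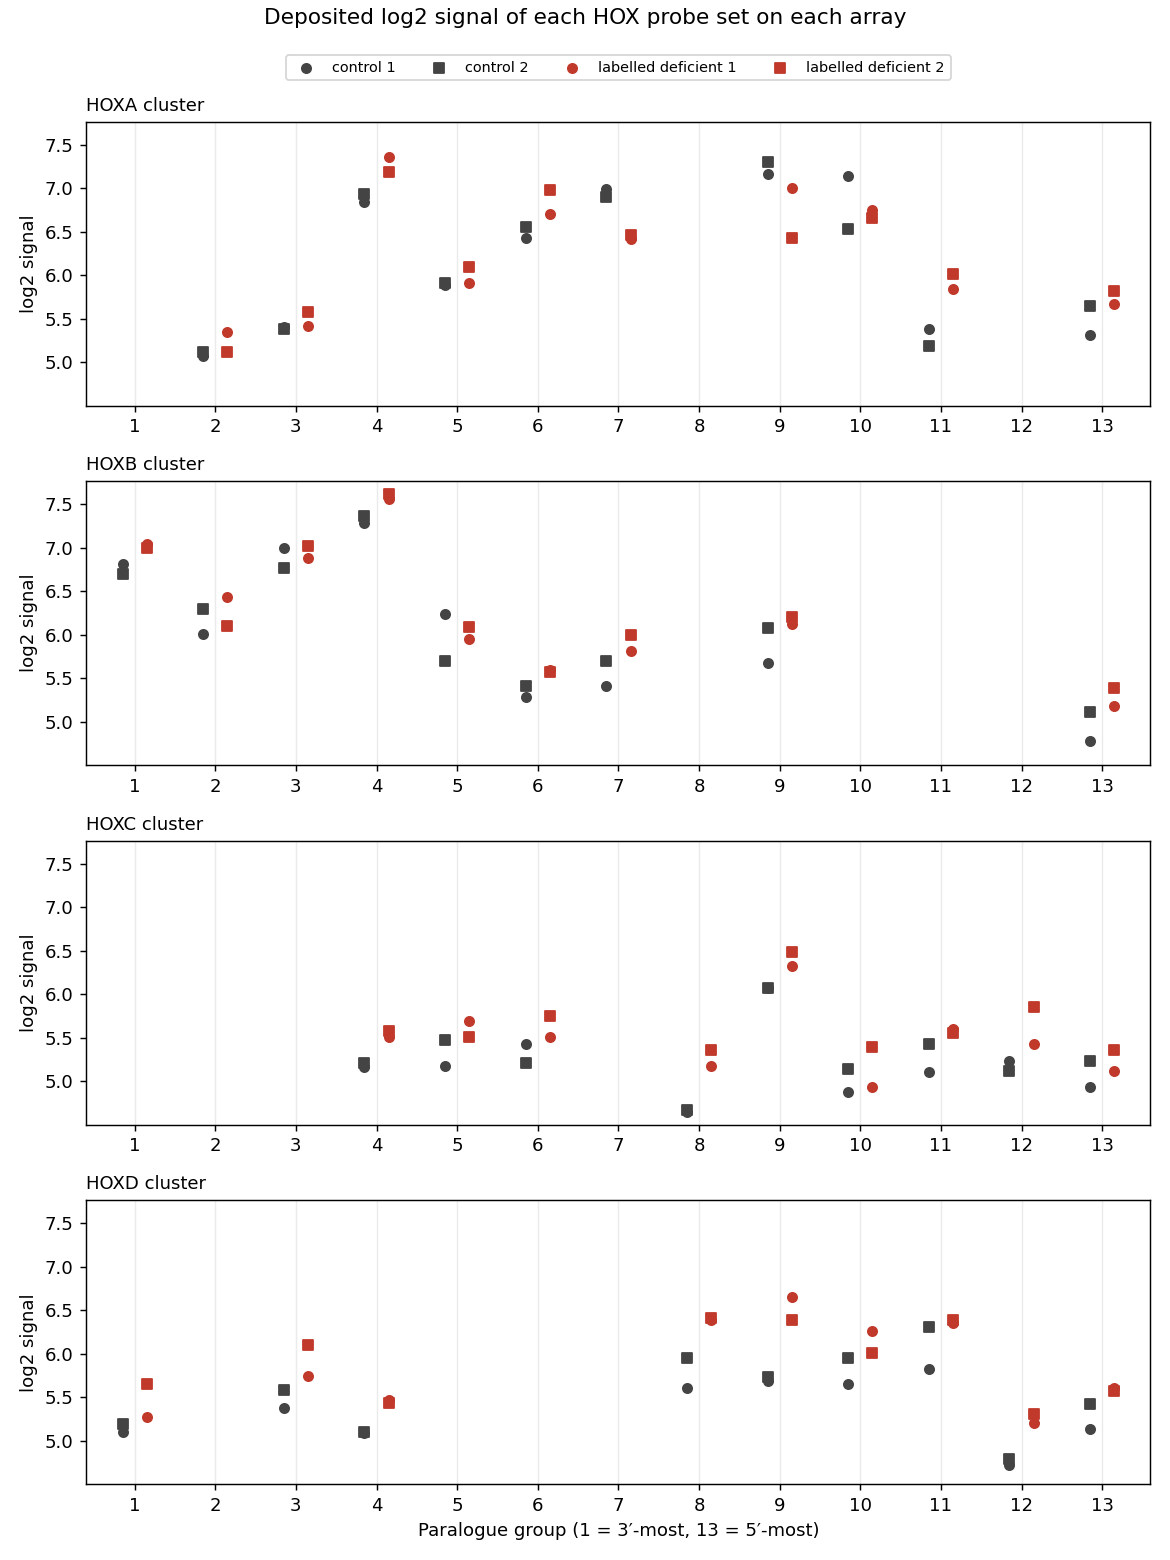
Deposited log2 signal (vertical axis) of each measured HOX gene by paralogue group (horizontal axis) in the 4 clusters, with control arrays in grey and arrays labelled deficient in red, and circles and squares for replicates 1 and 2. Signals are comparable between arrays within a gene and not between genes, and at Hoxa7 and Hoxa9 both red points lie below both grey points.

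By paralogue position, groups 1 to 4 had 11 of 11 genes above 0 and a median difference of 0.27, where 66.3% of all probe sets were above 0. Groups 5 to 8 had 9 of 10 above 0 and a median of 0.29, with Hoxa7 below. Groups 9 to 13 had 14 of 16 above 0 and a median of 0.32, with Hoxa9 and Hoxa10 below. The block medians lay close together, and a gradient along the clusters was not tested. Within paralogue group 9, Hoxa9 differed by −0.52 while Hoxb9, Hoxc9 and Hoxd9 differed by 0.28, 0.33 and 0.81. Within group 7, Hoxa7 differed by −0.50 and Hoxb7 by 0.35, and within group 10, Hoxa10 by −0.13, Hoxc10 by 0.16 and Hoxd10 by 0.33. Both measured members of group 8, Hoxc8 and Hoxd8, were among the genes with the largest differences.

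The upward differences are read against the whole table, where 66.3% of probe sets were above 0 and 33.7% below. Among HOX genes the shares were 91.9% and 8.11%. The groups did not overlap, in the upward direction, for 28 HOX genes (75.7%), against 38.9% of all probe sets, and in the downward direction for 2 (5.41%), against 14.0%. In either direction the share over all probe sets was 52.9%. At an unadjusted p under 0.05 in limma, 5 HOX genes were higher (13.5%, against 6.64% of all probe sets) and 1, Hoxa7, was lower (2.7%, against 5.25%). Past the adjusted threshold there were 0 HOX genes, against 0.00% of all probe sets. The count of 5 was 1 without control replicate 1, 2 without control replicate 2 and 1 without deficient replicate 2, and the count of 1 was 0 in each of these. The size of the upward shift varied with signal, seen when probe sets were split into 4 equal bands by mean signal. In the second band, from 4.80 to 5.95, the median difference was 0.22 and 78.5% were above 0, and all 21 HOX genes in that band were above 0, with a median of 0.32. In the third band, up to 7.23, the median was 0.16 and 63.6% were above 0, and of 15 HOX genes 12 were above 0. The brightest band had a median of −0.0029 and held 1 HOX gene, Hoxb4.

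**Figure D3:**
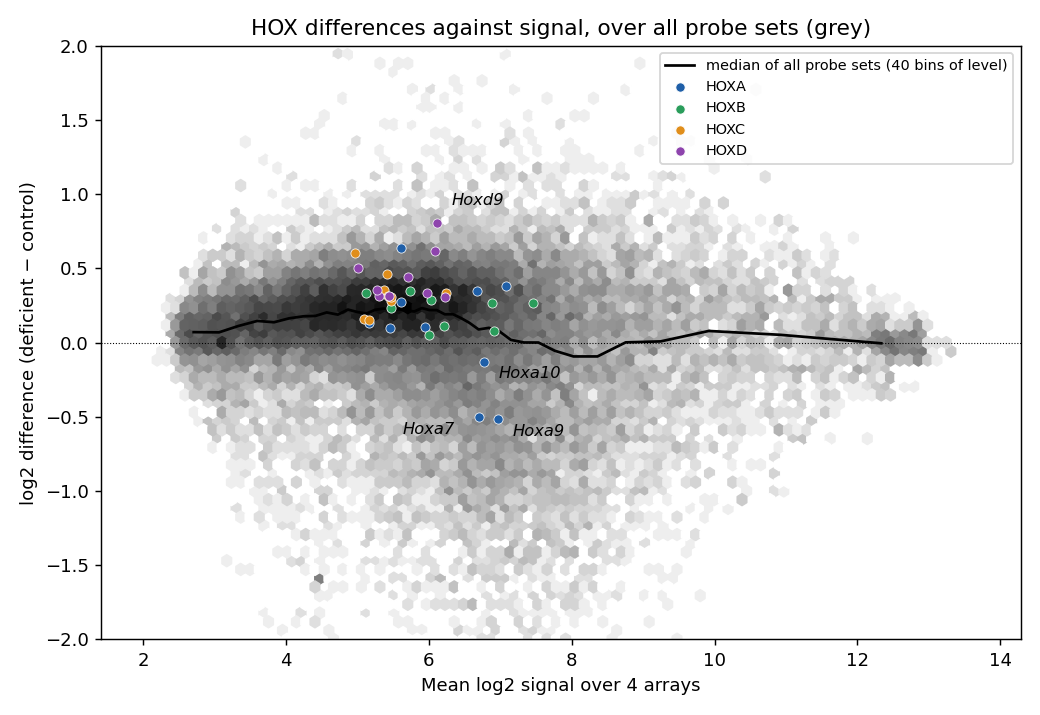
Log2 difference (arrays labelled deficient minus control) against the mean log2 signal over the 4 arrays, for all 35556 probe sets as grey density on a log scale and for the 37 HOX genes as points coloured by cluster; differences beyond 2 in size are not drawn. The black line is the median of all probe sets in 40 bins of signal, and of the HOX points 34 lie above 0 and those of Hoxa7, Hoxa9 and Hoxa10 below.

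Scaling moved the split of HOX genes. Cyclic loess, which removes signal-dependent shifts between arrays, left 26 HOX genes (70.3%) above 0 and 11 below. Under it 49.3% of all probe sets were above 0, and their median went from 0.15 to −0.0045. The HOX median went from 0.31 to 0.095. Subtracting array medians left 32 above and 5 below, where 57.9% of all probe sets were above 0. Hoxa7 and Hoxa9 moved further from 0 under loess, to −0.63 and −0.61, and Hoxa10 to −0.24. Hoxd9, Hoxd8, Hoxa11 and Hoxc8 stayed above 0 at 0.62, 0.43, 0.42 and 0.39. The 8 genes that turned negative under loess each differed by 0.16 or less before.

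**Figure D4:**
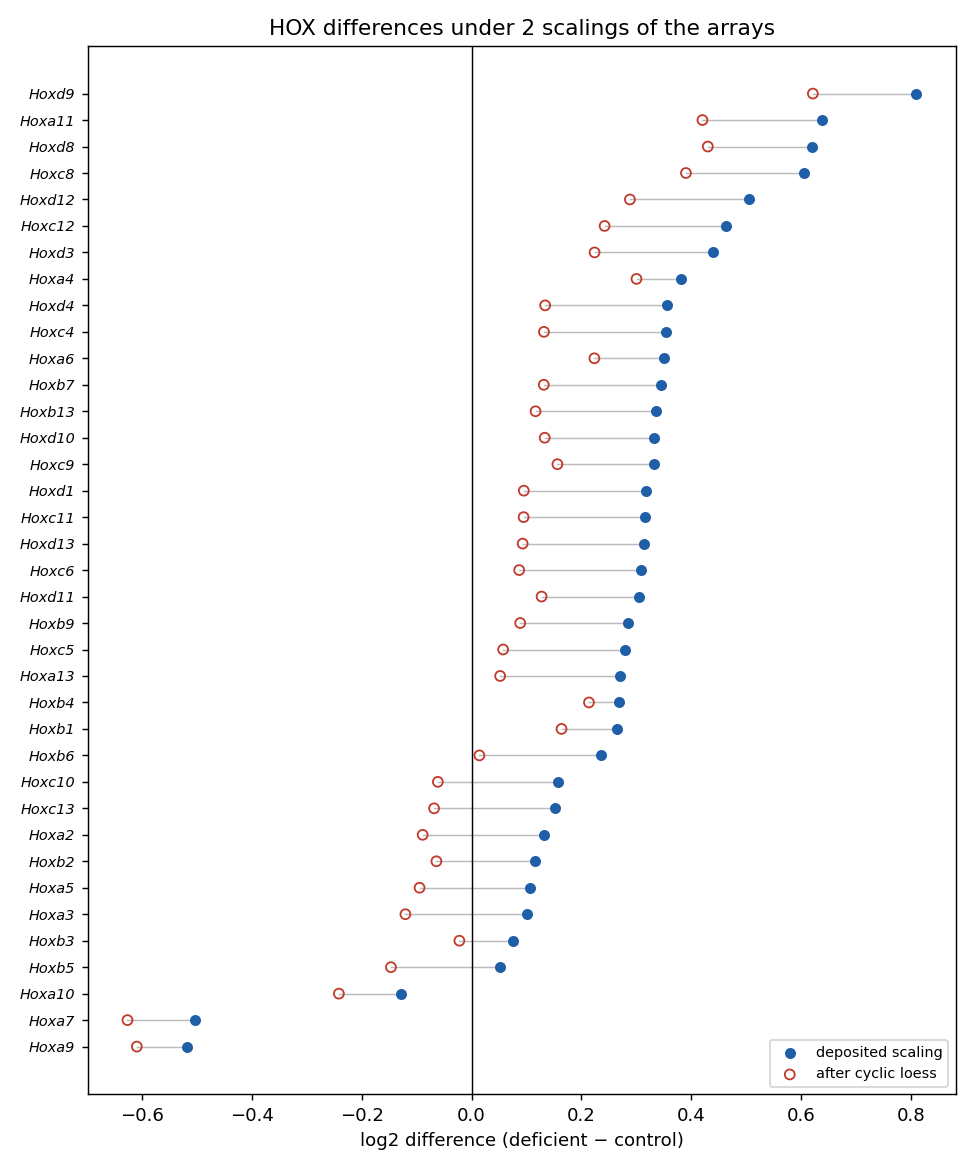
Log2 difference (arrays labelled deficient minus control, horizontal axis) of each of the 37 HOX genes on the deposited scale (filled blue) and after cyclic loess (open red), sorted by the deposited value. Every point moves left, 8 genes cross 0, and Hoxa7 and Hoxa9 have the lowest values under both.

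Other homeobox genes of the same ANTP class, of which most pattern the embryo and few act in blood, were set beside the HOX genes. Of 47 measured, 46 were above 0, beside 66.3% of all probe sets. The list median was 0.29, close to the HOX median of 0.31 with no test of the difference. The groups did not overlap, upward, for 39 of the 47 genes, against 38.9% of all probe sets. The exception below 0 was Hhex, a factor of blood stem cells and early B cells, which read 10.50 and 10.43 in the controls, then 8.73 and 8.37 in the deficient-labelled pair. Among those above 0, Mnx1 differed by 0.55, Nkx2-3, which acts in gut and spleen, by 0.54, and Bsx, a brain gene, by 0.59. Evx2, at the end of the D cluster, differed by 0.52 and Evx1, at the end of the A cluster, by 0.23. Under cyclic loess 38 of the 47 were above 0, against 49.3% of all probe sets.

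The TALE partners differed among themselves. Meis1, which binds DNA with HOXA9 and sustains stem cells, read 10.29 and 10.05 in the controls, then 6.66 and 7.65 in the deficient-labelled pair, a log2 difference of −3.01 (SE 0.39, adjusted p = 0.252 in limma). Of the 8 measured partners, 3 were below 0 and 5 above, beside 33.7% and 66.3% of all probe sets. Meis2 and Pknox2 differed by 0.49 and 0.58, Meis3 by 0.37 (0.20 to 0.54 with 1 array left out), and Pbx2, a PBX partner of HOX proteins, by −0.26 with overlapping groups. Pbx3 differed by 0.11, Pbx4 by 0.34 and Pknox1 by −0.34, all with overlapping groups. Under cyclic loess 4 of the 8 were above 0, against 49.3% of all probe sets.

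An MLL and trithorax list, most of it genes of the MLL complex, which maintains HOX expression, was below 0 for 8 of 10. Over all probe sets 33.7% were below 0. All 10 genes lay in the brighter 50% of probe sets, where 56.7% were above 0. The median was −0.35. The groups overlapped for 7 of the 10 genes. They were apart downward for 2 and upward for 1, against 14.0% and 38.9% of all probe sets. Kmt2a, the MLL methyltransferase gene, read 8.49 and 7.91 in the controls and 7.12 on both arrays labelled deficient. Its difference was −1.08 (SE 0.25, adjusted p = 0.372 in limma). Rbbp5, a core subunit gene of the MLL complex, read 9.47 and 9.33 against 8.60 and 8.32, a difference of −0.94 (SE 0.18). With an unadjusted p under 0.05, 2 of the 10 read lower and 0 read higher, against 5.25% and 6.64% of all probe sets. Kat6a, whose product belongs to another complex, differed by −0.98 with overlapping groups. The Kat6a difference was −0.33 without control replicate 1 and −1.63 without control replicate 2. The subunit gene Dpy30 differed by 0.22.

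Genes of the DOT1L and elongation machinery, which partner MLL fusions at HOXA genes in leukaemia, were below 0 for 6 of 10. Their median was −0.39. Over all probe sets 33.7% were below 0. All 10 genes lay in the brighter 50% of probe sets, where 56.7% were above 0 and the median difference was 0.079. Ccnt1, the cyclin of the elongation kinase, read 7.85 and 7.57 against 5.86 and 6.44, a difference of −1.56 (SE 0.27). Aff1 differed by −0.81 (SE 0.15) on its brighter probe set, while its other probe set had overlapping groups. Mllt10 differed by −0.49, and Dot1l, the H3K79 methyltransferase, by 0.35 (0.23 to 0.46 with 1 array left out). With an unadjusted p under 0.05, 2 of the 10 read lower, where the share of all probe sets was 5.25%, and 0 read higher, where it was 6.64%.

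In the Polycomb list 15 of 18 genes were below 0, against 33.7% of all probe sets, with a median of −0.75. All 18 lay in the brighter 50% of probe sets, where 56.7% were above 0. Most products of this list help silence HOX clusters. It also holds Kdm6a and Kdm6b, demethylase genes whose products oppose Polycomb, at −1.14 and −0.081. With an unadjusted p under 0.05, 7 of the 18 read lower and 1 read higher, beside shares of 5.25% and 6.64% over all probe sets. When limma was fitted to the brighter 50% alone, 1348 of 17778 probe sets read lower at that threshold and 964 read higher. Rnf2, the ubiquitin ligase of Polycomb complex 1, read 6.56 and 6.98 in the controls, then 5.17 and 5.21 in the deficient-labelled pair, a difference of −1.58 (SE 0.20, adjusted p = 0.252 in limma). Cbx8 differed by −1.02 (SE 0.28), Suz12, a subunit of complex 2, by −0.92 (SE 0.27, and −1.23 to −0.60 with 1 array left out) and Phc1 by −0.88 (SE 0.23). Ring1, the paralogue of Rnf2, had the opposite sign at 0.60 (SE 0.18). The counts below 0 of the MLL, DOT1L and Polycomb lists were the same under cyclic loess and after array medians were subtracted. The share of all probe sets above 0 was 49.3% and 57.9% under these settings, against 66.3% on the deposited scale.

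Of the other upstream regulators, 6 of 7 were above 0, beside 66.3% of all probe sets, with a median of 0.46. Gmnn, geminin, a replication licensing inhibitor that also contacts HOX proteins, differed by 0.90 (SE 0.16), and Hdac3, a histone deacetylase, by 1.06 (SE 0.35). Cdx4 and Cdx2, the caudal factors that switch on HOX genes in embryonic blood, differed by 0.45 and 0.46, and both are also counted among the ANTP-class genes. Both signals were dim. Cdx4 read 3.41 and 3.63 in the controls, then 3.91 and 4.03 in the deficient-labelled pair. It lay in the dimmest of the 4 bands of signal, where 73.5% of probe sets were above 0. Cdx2 lay in the second band, where 78.5% were above 0. None of these lists had a member past the adjusted threshold in limma.

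**Figure D5:**
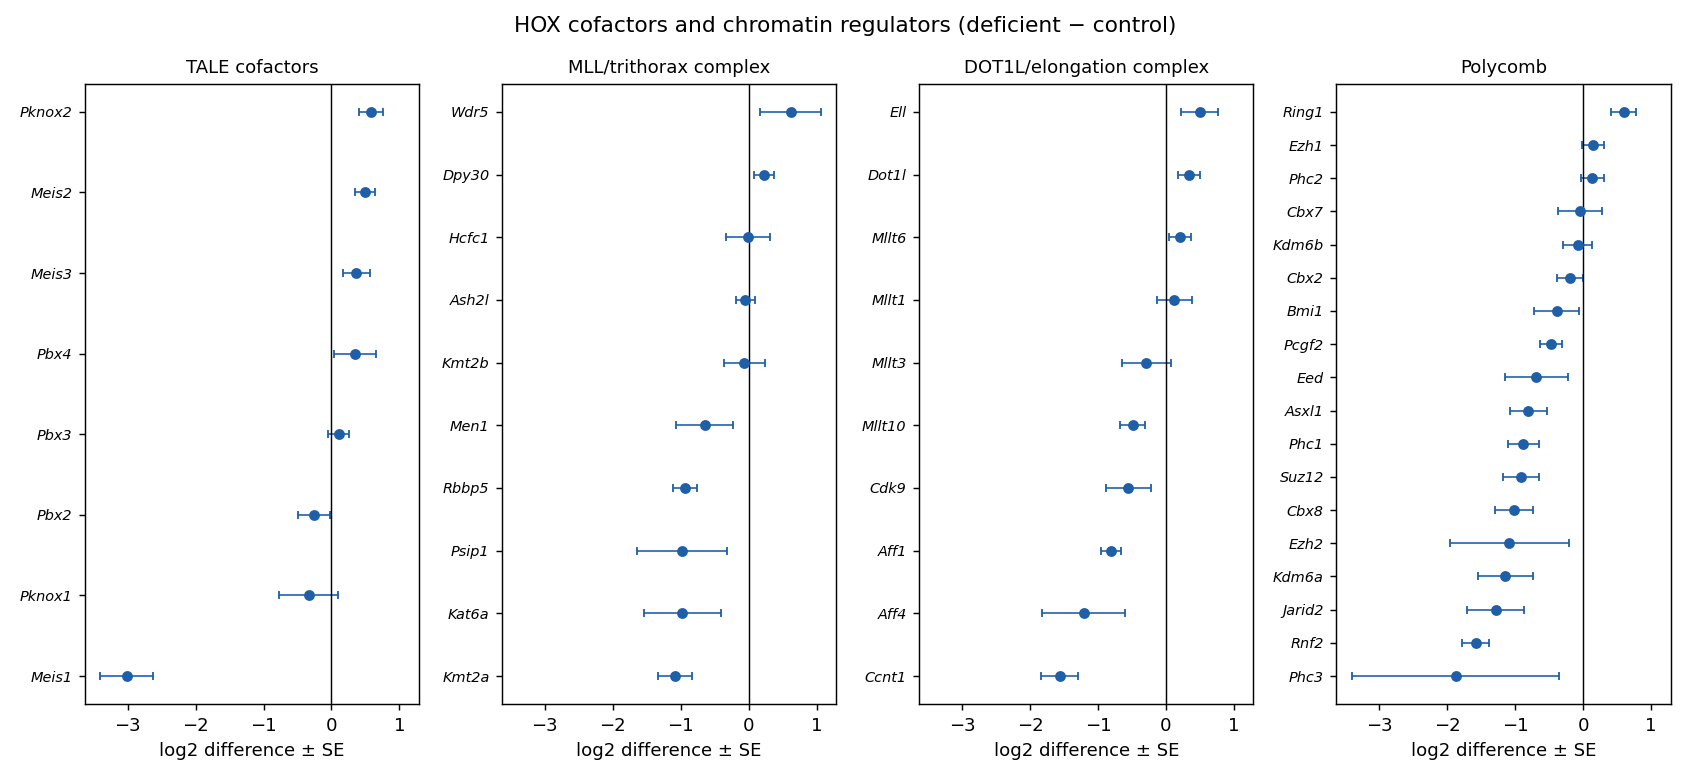
Log2 difference (arrays labelled deficient minus control) with limma's SE for the measured members of the TALE, MLL, DOT1L and Polycomb lists, 1 point per gene. The Polycomb list includes the opposing demethylase genes Kdm6a and Kdm6b. Meis1 lies far to the left of the other TALE genes, and most MLL and Polycomb points lie below 0.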

How the data were processed

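The deposited table holds log2 expression values, 1 per probe set and array, and RMA and Partek are named, without versions, in the submitters' processing notes. RMA includes background correction, quantile normalization and a summary per probe set. Per the labels, total RNA of sorted cells was amplified for each array. No genome build of the authors is given in the sources used here. Arrays have no read depth, and their number limits the precision.

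The values were used without further scaling. Of 35556 probe sets, 21789 had 1 gene symbol, 1621 several and 12146 none in the platform annotation, with symbols updated by Entrez number through RefSeq (GRCm38.p6). The brightest single-gene probe set stood for a gene. Genotype was fitted with lmFit and eBayes (limma 3.58.1, R 4.3.3) over all probe sets, with Benjamini-Hochberg adjustment and a threshold of 0.05, and the procedure was tested on simulated data. Alternatives were cyclic loess, median subtraction, a filter on dim probe sets, an intensity trend, a replicate block and leaving out each array. Lists are described by counts and medians, without a test. The members and lists were chosen with earlier results of these data known. By rule, every HOX gene could be named, with per-array values for the 10 smallest unadjusted p. Per-array values of Hoxa6, Hoxa9, Hoxa10, Hoxb2, Hoxb3, Hoxb4 and Hoxb5 fall outside this and were chosen after their values were seen. The rule also names up to 4 genes of each other list by unadjusted p, plus Gabpa, Kit, Flt3 and Meis1. Other named genes, the flanking genes and the genes named in the marker and regulator paragraphs beyond those were chosen after their values were seen. Figures used matplotlib 3.10.9.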

Additional observations from a re-analysis of the deposited data

How the results depend on the processing

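No setting changed the count of 0 HOX probe sets past the adjusted threshold in limma, with lowest adjusted p from 0.301 to 0.754. Of 37 HOX genes, 28 kept their sign under all alternatives run for them. Cyclic loess moved the counts of lower and of nominally higher genes to 11 and 2, the HOX median to 0.095, the A, B, C and D medians to −0.092, 0.088, 0.095 and 0.13, and the paralogue block medians to 0.13, 0.072 and 0.11; it gave −0.15, −0.022, −0.064, −0.068, −0.061, −0.089, −0.12 and −0.095 for Hoxb5, Hoxb3, Hoxb2, Hoxc13, Hoxc10, Hoxa2, Hoxa3 and Hoxa5. Median subtraction gave 5 lower genes, a HOX median of 0.23, A and B medians of 0.038 and 0.18, block medians of 0.19, 0.21 and 0.24, and −0.030 and −0.0055 for Hoxb5 and Hoxb3. Without the dimmer 50% of probe sets 16 HOX genes were left, which sets the counts to 13 higher and 2 nominally higher, and the A, B and D medians were −0.13, 0.19 and 0.48 and the middle block 0.20. The intensity trend gave 0 nominally lower and 7 nominally higher genes. The replicate block gave 0 nominally lower and 2 nominally higher. Deviations of same-numbered arrays correlated at −0.088 across probe sets. With so few arrays this value cannot show whether same-numbered samples were handled together. With 1 array left out, a lone array is assumed to vary like the other group, and the lower genes ran from 3 to 5, higher from 32 to 34, nominally lower from 0 to 1 and nominally higher from 1 to 4. The medians ran from 0.19 to 0.38 for all HOX genes, 0.11 to 0.19 for A, 0.19 to 0.30 for B, 0.25 to 0.39 for C and 0.34 to 0.54 for D, and from 0.26 to 0.31, 0.23 to 0.36 and 0.17 to 0.47 for the paralogue blocks. Hoxb5 ran from −0.22 to 0.32, Hoxb3 from −0.040 to 0.19, Hoxb2 from −0.051 to 0.28, Hoxc10 from −0.069 to 0.38, Hoxa10 from −0.43 to 0.18 and Gabpa from −1.42 to 0.0021. Apart from the settings whose construction removes probe sets or arrays, the cause was not tested. No HOX gene had several single-gene probe sets, so averaging them gave no other value.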

Other observations

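Genes beside the clusters, chosen as the nearest measured protein-coding genes, were looked at after the HOX values were seen. Of 16 such genes 10 were above 0 and 6 below, a split near the 66.3% and 33.7% of all probe sets. Skap2, an adaptor protein gene of blood cells that follows the 3′ end of the A cluster, read 9.54 and 9.46 in the controls, then 8.41 and 8.33 in the deficient-labelled pair, a difference of −1.13 (SE 0.14). Its neighbour Snx10, a sorting nexin, differed by −0.52 (SE 0.25) without overlap, and Hibadh, past Evx1 at the 5′ end, by −0.63 with overlapping groups. Beside the B cluster Skap1, the T cell relative of Skap2, differed by 0.46 (SE 0.19) and Calcoco2, an autophagy receptor, by 0.53 (SE 0.20). Mtx2, a mitochondrial protein gene beside the D cluster, differed by 0.48 (SE 0.23). Cbx5, which encodes the heterochromatin protein HP1α and lies beyond the C cluster, differed by −0.70 (SE 0.34).

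Genes reported as targets of HOX or MEIS proteins in blood progenitors were below 0 for 17 of 20, against 33.7% of all probe sets. Their median was −0.68. With an unadjusted p under 0.05 in limma, 8 read lower and 1 read higher, against 5.25% and 6.64% of all probe sets. Kit and the erythroid and macrophage lists moved between the same arrays, and their part in these differences was not tested. Flt3 is counted here and is also the gate gene given above. Cd34, a surface protein of progenitors, read 11.30 and 11.31 in the controls, then 8.00 and 7.53 in the deficient-labelled pair, a difference of −3.54 (SE 0.22, adjusted p = 0.169 in limma). Flt3, a cytokine receptor, differed by −3.03 (SE 0.35), Cdk6, a G1 kinase, by −1.13 (SE 0.20) and Hlf, a stem cell factor, by −1.67 (SE 0.32). Id2, an inhibitor of E proteins, had the opposite sign at 0.75 (SE 0.26). None passed the adjusted threshold in limma.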
